A study of Mus musculus with 4 samples.

Results

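Hypothalamic neuropeptide genes were examined in the brains of hybrid and inbred mice as 10 genes chosen by name, Oxt, Avp, Agrp, Hcrt, Pmch, Trh, Cartpt, Gal, Pomc and Crh, out of 45215 genes in the tables. The libraries were F1r (CAST/EiJ x C57BL/6), F1i (C57BL/6 x CAST/EiJ), CAST (CAST/EiJ, an inbred strain derived from wild Mus musculus castaneus) and B6 (C57BL/6, a standard laboratory strain), all labelled wild type. The labels do not name the dam of either cross, nor the age or sex of the mice. Each group was 1 brain library, made from left hemispheres of 5 pooled mice, and therefore no difference has a replicate check, an error between animals or a p-value. Values are FPKM, fragment numbers normalized for transcript length and library size, so that levels of different genes can be set side by side. As deposited, the totals differed: 1942710 FPKM in F1r, 2347990 in F1i, 1857428 in CAST and 2357188 in B6. Comparisons are therefore also given with the libraries rescaled to the same total. Levels, sums and orders of the libraries are as deposited unless stated, and some of the orders change after rescaling.

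Neuropeptides are cut from larger precursor proteins inside secretory granules and released from neurons to act on receptors of other cells. The hypothalamus makes many of them in small nuclei: oxytocin and vasopressin neurons lie in the paraventricular and supraoptic nuclei, orexin and melanin-concentrating hormone neurons in the lateral hypothalamus, and the feeding-related neurons of Agrp and Pomc in the arcuate nucleus. Several of the genes are also active elsewhere in the brain, Crh in the cortex for example, and Pomc is a main product of the pituitary gland. In RNA of a whole hemisphere, fewer cells of a type and less RNA per cell cannot be told apart.

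Oxt and Avp, which encode the precursors of oxytocin and vasopressin together with their carrier proteins, the neurophysins, are neighbours on chromosome 2. Oxt spans chr2:130576173-130577054 on the plus strand and Avp chr2:130580620-130582554 on the minus strand in GRCm38, so that they are transcribed towards each other with 3565 bases between their ends. Each has 3 exons. Exon 2, which is coding along its whole length and encodes much of the neurophysin, is 202 bases long in both genes, and 193 of these bases are identical. The exons are shown because reads from the identical run cannot be assigned to either gene by sequence; capitals mark the run of 125 identical bases at the start, and the letters are those of the B6-derived reference in GENCODE M21, read along each gene's own strand.
Oxt exon 2, chr2:130576591-130576792, plus strand: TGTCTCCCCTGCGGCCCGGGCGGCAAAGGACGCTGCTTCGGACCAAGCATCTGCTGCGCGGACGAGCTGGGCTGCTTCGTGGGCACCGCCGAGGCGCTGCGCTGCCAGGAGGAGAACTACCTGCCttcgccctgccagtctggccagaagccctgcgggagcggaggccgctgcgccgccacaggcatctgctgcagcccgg
Avp exon 2, chr2:130581056-130581257, minus strand: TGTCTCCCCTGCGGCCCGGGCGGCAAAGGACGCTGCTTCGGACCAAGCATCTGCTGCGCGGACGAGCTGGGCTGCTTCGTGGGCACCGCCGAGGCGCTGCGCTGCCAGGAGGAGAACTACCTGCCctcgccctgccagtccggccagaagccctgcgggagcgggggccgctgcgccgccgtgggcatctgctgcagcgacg
Of the 31-base words of the Oxt transcript, 21.3% recur in transcripts of other genes, and 97 of these 108 words are in Avp. For Avp the share is 17.7%, all of it in Oxt. How such reads were shared out is not known, so the split between the genes is uncertain by an amount that was not measured.

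**Figure D1:**
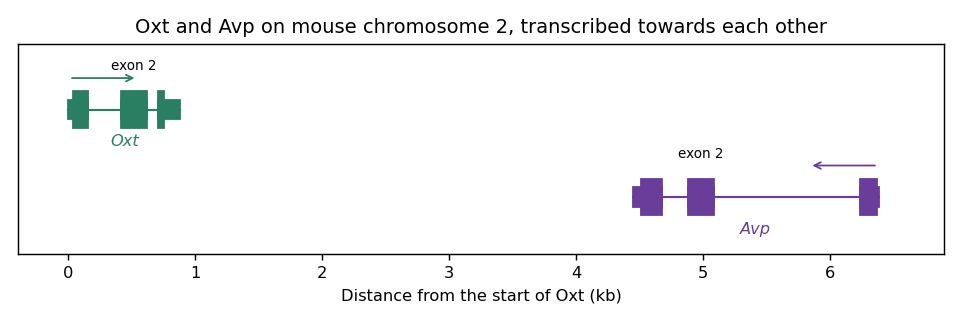
Gene models of Oxt and Avp, with distance from the start of Oxt in kilobases on the horizontal axis. Tall blocks are coding, short blocks are untranslated exon parts, lines are introns and arrows give the direction of transcription; 3565 bases separate the ends of the 2 genes.

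RefSeq promoter sequences (GRCm38.p6, 250 bases before to 50 bases after the start) were found for 8 of the 10 genes, all but Agrp and Crh. The promoters of Oxt, Gal and Avp are shown because these genes had the largest differences between the hybrids, given further on. Capitals mark matches, on either strand, to AGGTCA (a nuclear receptor half-site) or TGACG (a half-site of the cyclic AMP response element); the core promoter box TATAAA and the letters TACGTG, a core bound by SIM1 with ARNT2, were searched as well. None of the 4 motifs contains another.
Oxt promoter, chr2:130575919-130576218, plus strand: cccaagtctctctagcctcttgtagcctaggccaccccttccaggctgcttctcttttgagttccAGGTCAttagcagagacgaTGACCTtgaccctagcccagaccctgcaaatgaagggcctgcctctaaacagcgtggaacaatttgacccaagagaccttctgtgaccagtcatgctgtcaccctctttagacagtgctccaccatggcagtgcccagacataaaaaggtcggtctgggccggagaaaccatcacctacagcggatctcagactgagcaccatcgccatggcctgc
Gal promoter, chr19:3414495-3414794, minus strand: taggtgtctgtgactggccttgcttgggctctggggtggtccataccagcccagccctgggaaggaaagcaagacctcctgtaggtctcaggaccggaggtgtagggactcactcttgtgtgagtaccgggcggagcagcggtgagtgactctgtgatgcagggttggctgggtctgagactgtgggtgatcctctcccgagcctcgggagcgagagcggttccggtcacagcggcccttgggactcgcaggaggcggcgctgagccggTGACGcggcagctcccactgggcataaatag
Avp promoter, chr2:130582539-130582838, minus strand: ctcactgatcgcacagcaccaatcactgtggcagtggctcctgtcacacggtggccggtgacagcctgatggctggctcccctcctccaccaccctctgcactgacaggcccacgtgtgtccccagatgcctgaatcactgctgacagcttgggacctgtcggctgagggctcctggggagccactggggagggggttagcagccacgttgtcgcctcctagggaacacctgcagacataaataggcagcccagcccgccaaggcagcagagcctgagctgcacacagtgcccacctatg
AGGTCA was present in the promoters of Oxt, Pomc and Trh, and in 16.3% of all 32851 promoters. In Oxt it occurred at 2 places, with first bases at -185 and -166 relative to the start. TGACG was present for Cartpt, Gal and Trh, against 20.8% of all promoters, and TATAAA for Hcrt, Pmch and Pomc, against 13.6%. TACGTG was in none of the 8 windows and in 3.23% of all promoters. The Avp window held none of these motifs, and the RefSeq start of Gal lies upstream of the start of Gal in the deposited tables. A match is only a run of letters, and the CAST sequence of these windows was not used here.

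All 10 genes were detected in every library, and 9 of them had a mean of at least 1 FPKM over the libraries, the level required of the genes tested. Pmch, Oxt and Avp were the most abundant, Hcrt and Cartpt followed, and these 5 genes were at or above 10 FPKM in all 4 libraries. Trh, Crh, Gal and Pomc lay between 1.84 and 6.89 FPKM, and Agrp never reached 0.5 FPKM. As deposited, the summed FPKM of the 10 genes was 93.2 in F1r, 127 in F1i, 115 in CAST and 111 in B6. The ratio of the highest to the lowest library ranged from 1.31 for Hcrt to 1.91 for Gal, with a median of 1.43, beside a median of 1.25 over the 13768 genes tested.

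**Figure D2:**
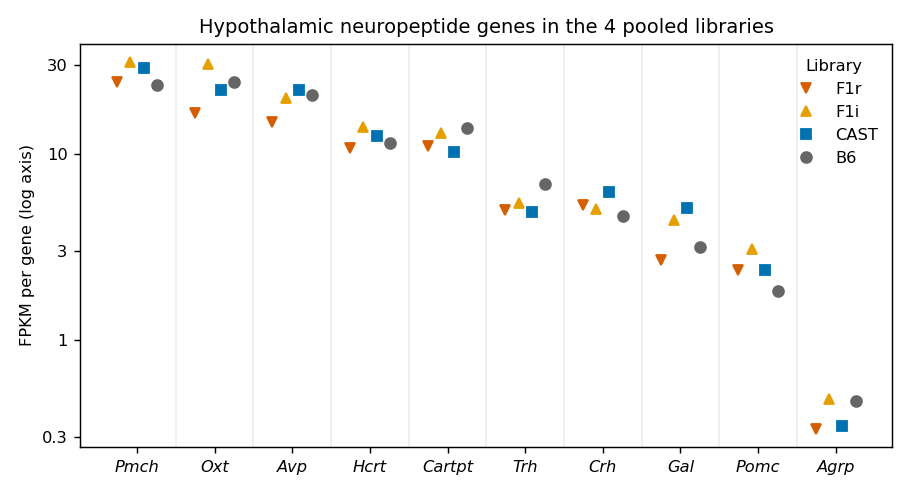
FPKM of each of the 10 genes (vertical axis, logarithmic) in the F1r, F1i, CAST and B6 libraries, 1 point per pooled library, with genes ordered by their mean. Leaving out Agrp, which rests on few fragments, F1r holds the lowest point of Oxt, Avp, Hcrt and Gal as deposited (of Oxt and Avp after rescaling to a common total). As plotted, the libraries of each gene lie within 1.91-fold of each other.

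Among the peptides of the magnocellular neurons, which release oxytocin and vasopressin from the posterior pituitary, Oxt was at 16.6 FPKM in F1r, 30.4 in F1i, 21.998 in CAST and 24.5 in B6. F1r was the lowest and F1i the highest library, with both inbred strains between them. Avp, the antidiuretic hormone gene, was at 14.9 FPKM in F1r, 19.9 in F1i, 21.98 in CAST and 20.6 in B6. F1r stood below the other libraries, which were close together as deposited. The ratio of Oxt to Avp was 1.12 in F1r, 1.53 in F1i, 1.001 in CAST and 1.19 in B6.

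Of the lateral hypothalamic peptides, Hcrt, the precursor of the orexins, which sustain wakefulness (chr11:100761691-100762931, minus strand), was at 10.7 FPKM in F1r, 14.0 in F1i, 12.5 in CAST and 11.5 in B6. All of it was listed for transcript Hcrt-201, and Hcrt-202 was listed at 0 in the 4 libraries. Pmch, which encodes melanin-concentrating hormone, a promoter of feeding and of sleep (chr10:88091072-88092375, plus strand), was at 24.2 FPKM in F1r, 31.05 in F1i, 29.0 in CAST and 23.5 in B6. As deposited, both genes were highest in F1i, while F1r and B6 held the lower values. With the libraries rescaled to a common total, F1i was the highest library for neither gene. The Pmch transcript lies opposite the last exon of Parpbp, a DNA repair gene on the minus strand, and 52.4% of its 31-base words occur there in reverse; Parpbp was at 0.0696 FPKM in F1r, 0.102 in F1i, 0.157 in CAST and 0.126 in B6.

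Of the releasing hormone genes, Trh, the precursor of thyrotropin-releasing hormone (chr6:92242061-92244650, minus strand), was at 5.02 FPKM in F1r, 5.47 in F1i, 4.85 in CAST and 6.89 in B6. B6 was the highest library and the other 3 were close together. Crh, the releasing hormone of the stress axis (chr3:19693401-19695396, minus strand), was at 5.33 FPKM in F1r, 5.07 in F1i, 6.23 in CAST and 4.64 in B6. CAST was its highest library and B6 its lowest.

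Of the arcuate and related peptides, Cartpt, which encodes the cocaine- and amphetamine-regulated transcript peptides (chr13:99898484-99900683, minus strand), was at 11.0 FPKM in F1r, 13.0 in F1i, 10.2 in CAST and 13.7 in B6. Gal, which encodes galanin, a peptide of many brain regions (chr19:3409919-3414472, minus strand), was at 2.69 FPKM in F1r, 4.40 in F1i, 5.13 in CAST and 3.15 in B6. As deposited, Gal paired F1r with B6 at the low end and F1i with CAST at the high end, and Cartpt paired F1r with CAST and F1i with B6. With the libraries rescaled to a common total, Cartpt was no longer lower in F1r than in F1i. Agrp, whose product blocks melanocortin receptors and raises feeding (chr8:105566698-105568298, minus strand, for Agrp-201), was at 0.334 FPKM in F1r, 0.481 in F1i, 0.346 in CAST and 0.473 in B6. These Agrp levels rest on an estimated 5 to 10 fragments per library, and no order of the libraries is read from them. Of the 31-base words of its transcripts, 8.56% recur in Gm5914, a non-coding gene on the same strand, and as many occur in reverse in Ctcf.

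Pomc, the precursor of the melanocortins and of beta-endorphin (chr12:3954951-3960642, plus strand), was at 2.38 FPKM in F1r, 3.07 in F1i, 2.38 in CAST and 1.84 in B6. F1i was the highest library and B6 the lowest. Of its 5 listed transcripts, Pomc-201 and Pomc-202 carried all of the signal, with Pomc-201 at 55.6% in F1r, 41.7% in F1i, 53.0% in CAST and 38.2% in B6. These transcripts differ in where exon 2 begins and in where the last exon ends, so their shares rest on few reads. Because the pituitary also makes Pomc, 12 pituitary markers were summed, and they came to 5.07 FPKM in F1r, 1.22 in F1i, 7.02 in CAST and 0.854 in B6. The growth hormone gene Gh was at 3.29 FPKM in F1r, 0.152 in F1i and 3.28 in CAST and was listed at 0 in B6, and the prolactin gene Prl was at 0.972 FPKM in F1r, 0.154 in F1i and 0.761 in CAST and was listed at 0 in B6. Pou1f1, Ghrhr and Gnrhr were listed at 0 in all 4 libraries, and Tbx19, a factor of the Pomc-producing pituitary cells, in all but F1i (0.0246). Cga, another of these markers, was at 0.209 FPKM in F1r, 1.69 in CAST and 0.0510 in B6 and was listed at 0 in F1i. Like Gh and Prl, it was higher in F1r and CAST than in F1i and B6. The markers did not all share this order. Lhb, a gonadotropin subunit gene, was at 0.108 FPKM in F1r, 0.392 in F1i, 0.766 in CAST and 0.240 in B6. Tshb, the thyrotropin subunit gene, was at 0.00781 in F1r, 0.118 in F1i, 0.00795 in CAST and 0.0950 in B6. Only Gh had a mean of at least 1 FPKM, so the order of the others rests on low values. The part of pituitary RNA in the Pomc values was not tested.

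**Figure D3:**
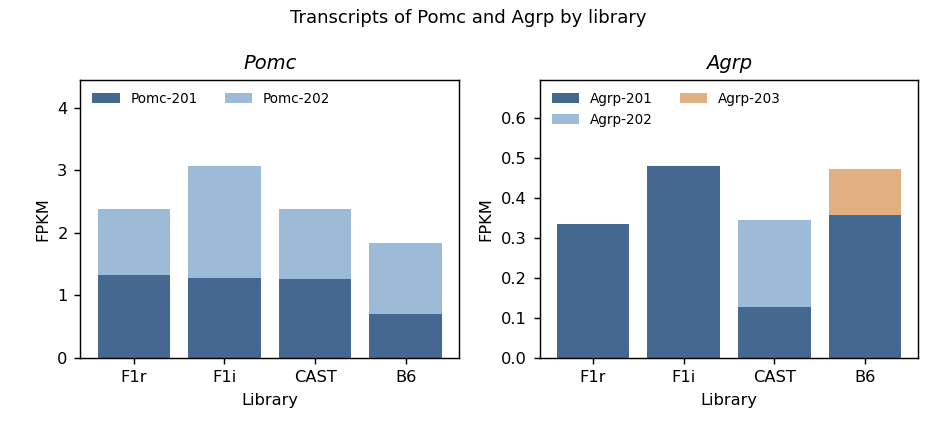
FPKM (vertical axis) of the transcripts of Pomc and Agrp with any signal, stacked per library (horizontal axis). Pomc-201 makes up from 38.2% of Pomc in B6 to 55.6% in F1r, and Agrp-201 is the only Agrp transcript in F1r and F1i.

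The comparison of F1r with F1i asked what differs between the directions of the cross, together with every difference between the pools. Of the 10 genes, 9 were lower in value in F1r, against 41.9% of all genes tested, and Crh was higher, against 58.1%. Without Agrp, which rests on few fragments and is not among the genes tested, 8 of 9 were lower and 1 was higher. Genes at least 2-fold apart were counted on FPKM + 1, here and below, unless another setting is named. By this measure 0 of 10 were 2-fold apart, against 0.508% of all genes. Agrp, under 1 FPKM in every library, could not reach 2-fold on FPKM + 1 in any comparison. Of all genes 33 (0.24%) were higher and 37 (0.269%) lower, or 62 and 30 with libraries rescaled to the same total. When the libraries were rescaled, 7 of the 10 were lower in value, with Trh and Cartpt turning positive as the median of all genes moved to 0.27. Relative to that median, 9 of the 10 were lower in F1r under each of the 3 scalings (as deposited, median-ratio and a common total). A scaling moves all genes of a library alike, so counts relative to the median, here and below, hardly depend on it. Their agreement between scalings is therefore no separate check. The median difference of the 10 genes was -0.31 on the log2(FPKM + 1) scale, which understates the change of low genes, beside a median of 0.03 for all genes tested, and -0.08 after rescaling.

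Oxt had the largest difference of the 10, -0.83, and 0.392% of all genes tested had a lower one. Its FPKM in F1r was 0.547 times that in F1i, with an estimated 182 fragments in F1r and 370 in F1i. Gal followed with -0.55 and a ratio of 0.612, with an estimated 46 fragments in F1r and 86 in F1i. Avp (-0.39), Hcrt (-0.36) and Pmch (-0.35) were next, at ratios of 0.749, 0.765 and 0.779. These 5 genes were below the 5th percentile of all genes, which was at -0.27, and Pomc (-0.26) was just above it. Cartpt (-0.22), Agrp (-0.15) and Trh (-0.10) were lower in value by less than that, and Crh was at 0.06. After rescaling, the differences were -0.57 for Oxt, -0.34 for Gal, -0.14 for Avp, -0.10 for Hcrt and -0.08 for Pmch, beside the median of 0.27 for all genes. When the FPKM times length of Oxt and Avp were summed, because of their shared exon, the joint difference was -0.63.

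Gene lists of the same pathway gave other values in F1r against F1i. Of 19 receptors of these peptides 18 were found. Of the 6 with a mean of at least 1 FPKM, 0 were 2-fold apart, and their median was -0.04. Oxtr, the oxytocin receptor, had 1.31 FPKM in F1r, against 0.958 in F1i, opposite in sign to Oxt. Hcrtr2, an orexin receptor, had 1.74 FPKM in F1r, against 2.18 in F1i. Among 15 genes of peptide processing and secretory granules, 0 were 2-fold apart and the median was 0.02. Qpct, whose enzyme forms the pyroglutamate end of peptides such as thyrotropin-releasing hormone, had 4.22 FPKM in F1r, against 5.76 in F1i. Crhbp, which encodes the protein that binds the stress peptide of Crh, had 6.03 FPKM in F1r, against 5.34 in F1i. Of 37 other neuropeptide genes, 19 had a mean of at least 1 FPKM. The genes of this list below that level were not counted, whereas Agrp, also below it, was counted among the 10. Of the 19, 0 were 2-fold apart, 9 were lower in value and the median was 0.003. Rln3, which encodes relaxin-3 of the brainstem, was the furthest apart of these, with 1.47 FPKM in F1r, against 3.50 in F1i. Its FPKM ratio was 0.419, but 2-fold is counted on FPKM + 1, where its log2 difference was -0.87.

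The medians of 2 lists of other hypothalamic genes lay on opposite sides of the median of all genes under each of the 3 scalings. Of the other genes enriched in hypothalamus or its median eminence, 22 had a mean of at least 1 FPKM. Among these 22, 15 lay below the median of all genes under each of the 3 scalings, with a list median of -0.12 and 0 genes 2-fold apart. The largest of these were Ddc, an enzyme of monoamine synthesis, with 5.75 FPKM in F1r, against 9.33 in F1i, and Slc18a2, the vesicular monoamine transporter, with 2.36 FPKM in F1r, against 3.91 in F1i. Both genes are also used by monoamine neurons of the midbrain and brainstem. Rgs9 came next in size but was higher in F1r (0.41), and it is also counted among the striatal markers. The 7 hypothalamic transcription factor genes with a mean of at least 1 FPKM had a median of 0.08 and 0 were 2-fold apart. Nkx2-2 was at 1.001 FPKM in F1r, against 1.97 in F1i, and Isl1 at 1.47 FPKM in F1r, against 1.21 in F1i. Of the 7, 5 were higher in value and 2 lower, Nkx2-2 at -0.57 and Lhx9 at -0.32. The other listed factors, Sim1, Otp, Nkx2-1 and Nr5a1 among them, were below that level, so they were not counted. Prox1, 1 of the 7, is also counted among the cortex and hippocampus markers. As deposited, all 28 other hypothalamic genes summed to 469 FPKM in F1r, against 487 in F1i, and all 25 transcription factor genes to 58.5 in F1r, against 58.6 in F1i. Abundant genes weigh heavily in these sums. Nnat had 147 FPKM in F1r, against 137 in F1i, and Arnt2 37.5 in F1r, against 37.0 in F1i.

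Relative to the median of all genes, 10 of 10 markers of cortex and hippocampus and 9 of 9 of striatum were higher in F1r, and 8 of 8 of cerebellum were lower, under each of the 3 scalings. Cortical and hippocampal markers summed to 432 FPKM in F1r, against 395 in F1i. Striatal markers summed to 303 in F1r, against 259 in F1i, and cerebellar markers to 391 in F1r, against 454 in F1i. Glial and choroid plexus markers were also mostly below that median in F1r: 9 of 10 myelin markers (8 after rescaling to a common total), 7 of 8 astrocyte markers (6 after that rescaling) and 6 of 8 choroid plexus markers, with median differences of -0.14, -0.13 and -0.16 as deposited. Myelin markers summed to 1683 FPKM in F1r, against 1836 in F1i. Astrocyte markers summed to 935 in F1r, against 991 in F1i, and choroid plexus markers to 651 in F1r, against 772 in F1i. All these sums are as deposited, and the scaling affects their direction. After rescaling to a common total, 7 of 8 cerebellar and 8 of 8 choroid plexus markers were higher in value in F1r. So were 8 of 10 myelin and 7 of 8 astrocyte markers, while the median of all genes was 0.27. No gene of these lists was at 0, and the pan-neuronal list summed to 2198 in F1r, against 2149 in F1i. The part of regional and cellular makeup in the lower neuropeptide values of F1r was not tested.

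**Figure D4:**
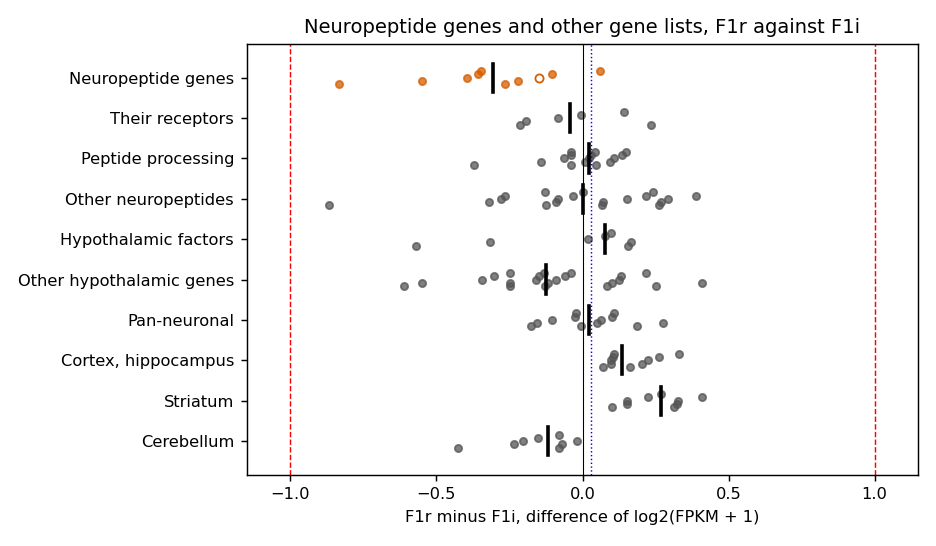
F1r minus F1i difference of log2(FPKM + 1) (horizontal axis) for the 10 neuropeptide genes and for genes with a mean of at least 1 FPKM in the other lists, 1 point per gene, with Agrp, which is below that level, as the open point. Thick bars are list medians, the dotted line is the median of all genes (0.03) and dashed lines are 2-fold; 9 of the 10 neuropeptide genes lie left of the dotted line, while cortical and striatal markers lie right of it.

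CAST was set against B6 to find differences between the parental strains. Of the 10 genes, 0 were at least 2-fold apart, against 5.12% of all genes tested. Of all genes 393 (2.85%) were higher and 312 (2.27%) lower, or 597 and 179 after rescaling to the same total, which moved the median of all genes to 0.34. In value, 6 of the 10 were higher in CAST, against 55.4% of all genes, and 4 were lower, against 44.6% (7 and 3 after rescaling). As deposited and without Agrp, 6 of 9 were higher and 3 lower. Relative to the median of all genes, 6 were higher and 4 lower under each of the 3 scalings. The median of the 10 genes was 0.10, beside 0.04 for all genes, and every one of the 10 differences lay between the 5th and 95th percentiles of all genes (-0.66 and 0.66). Gal had the largest, 0.56, with a CAST level 1.63 times that of B6. Crh was 1.34 times as high in CAST as in B6, Pmch 1.24 times and Pomc 1.30 times, although the highest Pomc transcript alone gave a log2 difference of -0.01. Trh was 0.703 times as high in CAST as in B6 and Cartpt 0.744 times. Oxt was at -0.15, Avp at 0.09 (-0.03 when summed with Oxt) and Hcrt at 0.12. After rescaling, with all genes at a median of 0.34, the differences were 0.18 for Oxt, 0.42 for Avp and 0.44 for Hcrt, -0.14 for Trh and -0.08 for Cartpt, and 0.84 for Gal, 0.65 for Crh, 0.62 for Pmch and 0.49 for Pomc.

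The related lists also had few genes past 2-fold between CAST and B6. Of the 6 receptors, 0 passed it, with Mchr1, the receptor of melanin-concentrating hormone, at 8.38 FPKM in CAST, against 6.30 in B6, and Crhr1, a receptor of the Crh peptide, at 5.27 in CAST, against 6.83 in B6. Of the 15 processing genes 0 passed it, and the furthest apart was Scg5, which encodes the 7B2 chaperone of the convertase PC2, at 209 FPKM in CAST, against 107 in B6, a difference of 0.95. Of the 19 other neuropeptide genes, Rln3 passed it at 5.74 FPKM in CAST, against 1.51 in B6. Adcyap1, which encodes the peptide PACAP, was at 10.4 FPKM in CAST, against 7.09 in B6. Markers of other cells differed as well: 10 of 10 myelin markers were below the median of all genes in CAST under each scaling and summed to 1339 FPKM in CAST, against 2222 in B6, and 8 of 8 choroid plexus markers were below it and summed to 467 in CAST, against 788 in B6. None of them was at 0, and their part in the neuropeptide values was not tested.

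**Figure D5:**
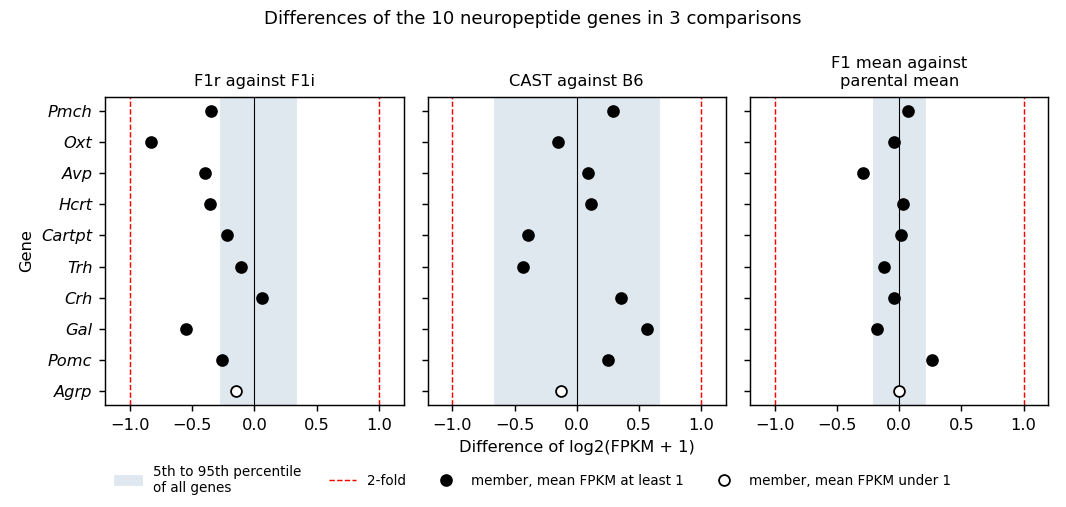
Differences of log2(FPKM + 1) (horizontal axis) for each of the 10 genes (vertical axis) in F1r against F1i, CAST against B6, and the mean of the F1 libraries against the mean of the parental ones. The shaded band is the 5th to 95th percentile of all genes tested and dashed lines are 2-fold; Oxt, Gal, Avp, Hcrt and Pmch lie left of the band in F1r against F1i, while all 10 genes lie inside it in CAST against B6.

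The hybrids were set against the parents to ask whether hybrid levels are intermediate. With the mean of F1r and F1i against the mean of CAST and B6, 0 of the 10 genes were 2-fold apart, against 0.392% of all genes. Of all genes 41 (0.298%) were higher and 13 (0.0944%) lower. In value, 4 of the 10 were higher in the hybrids, against 51% of all genes, and 6 lower, against 49%. Without Agrp, 4 of 9 were higher and 5 lower. The median was -0.02, beside 0.002 for all genes. After rescaling, 2 were higher and 8 lower, while the median of all genes moved to -0.02, and 5 of the 10 lay below that median. Avp was lower in value (-0.29) and Pomc higher (0.26), both outside the 5th to 95th percentiles of all genes (-0.20 and 0.21), and the other 8 were inside. Inside these limits were also Avp when summed with Oxt (-0.16) and Pomc by its highest transcript alone (0.17). No gene of the 10 was 2-fold apart between CAST and B6, so no position on a scale between the parents was computed. Of the 9 genes that passed the filter, 4 (Oxt, Avp, Hcrt and Gal) were below both parental values in F1r, against 20.2% of all genes, 4 were within them, against 54.6%, and Pomc was above them, against 25.2%. In F1i, 4 genes (Oxt, Hcrt, Pmch and Pomc) were above both, against 17.7%, 4 were within them, against 58%, and Avp was below both, against 24.3%. Oxt and Hcrt were below both parents in F1r and above both in F1i, against 4.06% of all genes. F1r was the lowest of the 4 libraries for 4 of the 9 genes and 15.2% of all genes, and F1i the highest for 4 of the 9 and 12.4%. These positions depended on the scaling. With the libraries rescaled to a common total, F1r was below both parents for Oxt, Avp and Trh, against 6.09% of all genes, and above them for 0 of 9. F1i was then above both for Oxt and Pomc, against 2.72%, and below both for Avp and Trh, against 41.3%. Oxt alone was then below both parents in F1r and above both in F1i, against 0.334%; F1r was lowest for Oxt and Avp, against 2.71%, and F1i highest for Oxt and Pomc, against 1.37%. With median-ratio scaling, Pmch joined Oxt, Avp, Hcrt and Gal below both parents in F1r, against 24.3%. These positions carry no error between animals. Among the 19 other neuropeptide genes with a mean of at least 1 FPKM, Cort, which encodes cortistatin, was furthest below the parents in the hybrid mean (-0.61), with 4.11 FPKM in F1r and 2.90 in F1i, against 5.33 in CAST and 6.32 in B6.

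Depth set how closely these levels are known. From the FPKM that 1 fragment is worth, the libraries held an estimated 30200000 fragments in F1r, 34000000 in F1i, 30400000 in CAST and 42200000 in B6. Leaving out Agrp, the members rested on an estimated 46 fragments (Gal in F1r) to 629 (Pmch in F1i) per library, which gives a rough counting error of 14.7% to 3.99%. This covers counting only, and the spread between mice or pools was not measured.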

How the data were processed

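Total RNA of left hemispheres, pooled from 5 mice per group, was measured in 4 libraries made with a strand-specific kit, per the labels' protocols. The authors deposited FPKM per transcript beside its gene, position and length. The submitters' processing notes name HISAT2, Cufflinks 2.2.1, Cuffdiff, Trimmomatic 0.36 and bcl2fastq 2.20, and build mm9. The tables' coordinates are those of GRCm38, since 99.5% of 128603 transcripts are in GENCODE M21 and 97.2% of these have the same start and end. The sources used here do not state strand settings, the handling of multiply matching reads, or the strain of the genome. The effect of CAST variants on mapping was not tested.

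FPKM of transcripts of at least 200 bases were summed per gene (45215 genes), and 13768 genes with a mean of at least 1 FPKM over the libraries were compared as differences of log2(FPKM + 1); the F1 and parental means are means of log2 values. Since each group is 1 library, genes at least 2-fold apart in FPKM + 1 were counted in place of a test. The worth of 1 fragment was the most common value of FPKM times length, within a fixed low range, among genes with 1 transcript of similar length (within 15%). Fragments per member are FPKM times length divided by it, so they are estimates. For the fragments per library, transcripts of a wider range of lengths were used. The rule for like patterns named genes only for members at least 2-fold apart, of which there were 0. Of other lists, up to 4 genes per comparison with the largest differences were named. Parpbp is named because it overlaps Pmch. Prl, Cga, Lhb, Tshb and the pituitary genes at 0 were chosen with their values known. The 10 genes and the 13 other lists were chosen with earlier results of these data known. Some genes, such as Rgs9, Penk, Tac1, Prlr and Prox1, are in more than 1 list, so the counts of these lists are not separate. Python 3.11.15, numpy 2.4.6, pandas 2.3.3 and matplotlib 3.10.9 were used, and the steps were tested on simulated data. Alternatives were a pseudocount of 0.1, no filter, a mean of at least 5 FPKM, median-ratio scaling, a common total, all transcript lengths, the highest transcript per gene and protein-coding genes; 4 more were added after the data were seen (no pseudocount, Oxt and Avp summed, differences less the median of all genes, and positions between the parents under each scaling).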

Additional observations from a re-analysis of the deposited data

How the results depend on the processing

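In every setting in which the 10 genes were counted, 0 of them were 2-fold apart in each comparison. The setting of protein-coding genes counted all genes only. With libraries rescaled to the same total, the median of the 10 genes in CAST against B6 became 0.43, beside 0.34 for all genes, and genes higher and lower became 597 and 179 in CAST against B6, with 62 higher in F1r against F1i. With a pseudocount of 0.1, 494 genes were lower in CAST, F1r had 112 higher and 73 lower, and the F1 mean 117 higher and 24 lower. Without a filter, 57 were higher in F1r and 21 lower in the F1 mean. At a mean of at least 5 FPKM, 215 were higher and 158 lower in CAST, 12 and 22 in F1r, and 6 lower in the F1 mean. With all transcript lengths, F1r had 99 genes higher and 125 lower, the F1 mean 141 and 105. Among protein-coding genes, 132 were higher in CAST, F1r had 18 higher and 11 lower, the F1 mean 12 and 8. The filters and length limits change which genes are tested; the cause was not tested otherwise. Of 246 recomputed differences of single members, 236 moved by less than 0.28, the standard deviation of F1r minus F1i over all genes. The other 10 moved by more, 8 of them in CAST against B6 after rescaling and the rest for Agrp without a pseudocount. Among the 236 are those with no filter, at a mean of at least 5 FPKM and with all transcript lengths. These settings cannot alter a member's value, so their agreement is no check. No paired analysis was possible because each group has 1 library. Positions on a scale between the parents were not run, since 0 members were 2-fold apart. With 1 pool per group, depth limits Agrp most.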
